A study of Mus musculus with 24 samples.

Results

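Interferon-stimulated genes are the genes that cells switch on when interferons, the secreted alarm proteins of antiviral defence, bind their receptors. The receptors signal through JAK kinases to a transcription factor complex that holds STAT2 and IRF9 and binds a short DNA element called the ISRE (interferon-stimulated response element) at the start of these genes. Among the induced proteins are sensors that recognise viral RNA, enzymes that damage or block it, and transcription factors and brakes that tune the response itself, and most tissues, liver and brain included, keep a low level of many of them without infection. The 36 genes described here are such genes outside the Oas family, which makes oligoadenylate synthetases. They were chosen by name, with earlier results of these arrays known, and the per-array mean of their levels and their CAG42 minus WT differences in each tissue belong to that choice, so that these differences are given below as a description. The calls that the fit over all probe sets makes on them are counted beside the share of all genes called, and nothing is read from these counts. On the arrays, 33 of the 36 genes were measured by 50 probe sets, of 45037 probe sets tested and 17097 named genes. Isg15, Bst2 and Ifi44 had no probe set assigned to a single gene and are named only. Each gene is represented by its brightest probe set, the one with the highest mean over all arrays. Of the 33 genes, 13 had more than 1 probe set, and the others are given for the main values that depended on the probe set.

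The study put RNA of liver, cerebellum and brainstem on 24 Affymetrix arrays, with 4 CAG42 mice and 4 wild-type littermates (WT) in each tissue and all mice at 18 months of age. CAG42 mice are homozygous knock-in mice, in which a 42-unit CAG repeat stands in the mouse Atxn2 gene under its own promoter, as a model of spinocerebellar ataxia type 2. Both genotypes came from heterozygous matings of knock-in mice, made in embryonic stem cells of another strain and backcrossed into C57BL/6, so that the groups share that background and CAG42 mice also carry what was left of the targeting vector and any stem cell DNA linked to Atxn2. The sources used here do not state their sex. Values are log2 levels after RMA, where a difference of 1 is a doubling. A call means an adjusted p under 0.05 from limma with Benjamini-Hochberg correction over all 45037 probe sets. In bulk tissue, a larger share of cells that make an RNA cannot be told apart from more of that RNA per cell.

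The tissue labels fitted the markers, with hepatocyte genes at a median of 9.91 log2 units above WT cerebellum in WT liver. Arrays of a group correlated with r of at least 0.992 in brain and 0.986 in CAG42 liver. In WT liver r went down to 0.954, the value between replicates 1 and 3, while the lowest r of replicates 2 and 4 was 0.976 and 0.964. Results on WT liver are therefore also given without replicates 1 and 3. The interferon-stimulated genes varied more between mice than other genes did: their median SD was 0.47 in WT liver and 0.38 in CAG42 liver, against 0.24 and 0.15 over all genes. It was 0.17 in WT cerebellum and 0.25 in WT brainstem, against 0.11 and 0.12. Without detection calls, a low level here may be background alone. Group means at or above 4.37, the median of all values, were found for 30 of the 33 genes in WT liver, 22 in WT brainstem and 19 in WT cerebellum. Mx1, a dynamin-like GTPase against influenza virus that most laboratory strains carry as a defective allele, stayed below it in all 6 groups (highest group mean 4.03).

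The element through which interferon acts can be read in the promoters of several of the genes. RefSeq promoter windows (assembly GRCm38.p6, from 250 bases before to 50 bases after an annotated start) were found for 26 of the 36 genes, and they were searched on both strands for the ISRE core, spelled GAAA, any 2 bases and GAAA again. It was present in 11 of the 26 genes (42.3%), against 1079 of 27025 genes with a window (3.99%). The 11 genes were Ifit1, Ifit3, Rsad2, Gbp2, Gbp3, Stat2, Ddx58, Ifih1, Eif2ak2, Isg15 and Bst2. The 160 bases before the start are shown for the 4 of them with the largest liver differences below, and for Irf7, whose difference was among the largest while its window held no match. They run 5′ to 3′ on the strand of the gene, with matches in capitals, which read TTTC, 2 bases and TTTC because the core lies on the opposite strand. They come from Ifit1 (chr19:34640729-34640888, plus strand), Ifit3 (chr19:34583369-34583528, plus), Rsad2 (chr12:26456453-26456612, minus), Gbp3 (chr3:142559884-142560043, plus, the one of its 2 windows with a match) and Irf7 (chr7:141266425-141266584, minus).
Ifit1: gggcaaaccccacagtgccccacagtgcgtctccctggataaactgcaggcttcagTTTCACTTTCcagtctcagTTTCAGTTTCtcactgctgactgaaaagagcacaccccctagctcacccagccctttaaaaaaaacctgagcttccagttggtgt
Ifit3: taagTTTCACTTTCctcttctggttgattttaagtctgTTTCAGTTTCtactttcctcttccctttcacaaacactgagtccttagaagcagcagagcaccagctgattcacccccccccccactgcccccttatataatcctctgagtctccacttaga
Rsad2: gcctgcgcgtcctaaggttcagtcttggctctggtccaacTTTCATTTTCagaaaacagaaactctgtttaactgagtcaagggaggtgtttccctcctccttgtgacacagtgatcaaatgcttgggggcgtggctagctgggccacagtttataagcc
Gbp3: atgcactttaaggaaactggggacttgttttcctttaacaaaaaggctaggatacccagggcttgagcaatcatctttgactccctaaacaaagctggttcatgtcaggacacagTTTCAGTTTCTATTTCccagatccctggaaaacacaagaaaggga
Irf7: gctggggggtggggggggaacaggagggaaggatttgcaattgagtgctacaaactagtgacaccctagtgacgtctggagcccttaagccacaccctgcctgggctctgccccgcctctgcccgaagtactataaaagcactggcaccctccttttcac
Ifit1 and Ifit3 each held 2 separate cores, beginning at -104 and -85 from the start in Ifit1 and at -156 and -122 in Ifit3. In Gbp3 the 2 cores overlap. The same window held the GAS core TTCNNNGAA, the core of the gamma-activated sequence, in 7 of 26 genes (26.9%, against 9.55% of all genes), and in 1 gene a GAS core overlapped an ISRE core. A match of these letters is a description of the sequence and not a measured binding site, and a window without them says nothing of other elements.

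In liver, most of these genes had higher levels in CAG42 than in WT mice. The difference was above 0 for 30 of 33 genes, against 52.3% of all named genes, and its median was 0.51 against 0.01 over all genes. As a description, the fit called Usp18, Irf7 and Ifi27 higher and 0 genes lower, where 0.164% of all named genes were called higher and 0.0643% lower. At an unadjusted p under 0.05 it was 22 genes higher and 0 lower (5.77% and 4.21% of all genes). All CAG42 livers lay above all WT livers in 5 genes, Usp18, Ifi27, Ifit2, Dhx58 and Trim25 (1.19% of all genes). In Dhx58 and Ifit2 the groups nearly touched. The highest WT and the lowest CAG42 liver were at 6.359 and 6.360 in Dhx58 and at 4.75 and 4.78 in Ifit2.

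Usp18 had the largest difference by the brightest probe sets. It is the protease that removes the ubiquitin-like ISG15 from proteins and also restrains the type I interferon receptor. Its level was 5.34, 5.48, 3.77 and 5.59 in the WT livers and 6.30, 7.22, 8.28 and 7.50 in the CAG42 livers. Every CAG42 liver lay above every WT liver, and the means, 5.05 ± 0.86 and 7.33 ± 0.82 (SD, n = 4), differed by 2.28 (standard error 0.41), or 4.86-fold. Irf7, the transcription factor that amplifies type I interferon production, stood at 6.21, 6.30, 4.72 and 6.96 in WT and 6.73, 7.70, 8.85 and 8.40 in CAG42 livers. Here WT replicate 4 lay above CAG42 replicate 1, and the difference was 1.87 (standard error 0.38, 3.66-fold). Ifi27, a small mitochondrial protein of the IFI27 family and a sensitive marker of interferon, gave 8.72, 9.26, 8.27 and 9.59 in WT livers and 9.77, 10.68, 11.39 and 10.74 in CAG42 livers. Its groups did not overlap, and the 1.68 difference (standard error 0.26, 3.21-fold) was 1.71 by its second probe set on the same arrays.

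The Ifit proteins bind viral RNA by its 5′ end. Ifit1, with 2 ISRE cores in its promoter, was at 5.52, 5.67, 4.57 and 6.45 in WT and 6.42, 6.89, 7.96 and 7.42 in CAG42 livers. Only WT replicate 4 and CAG42 replicate 1 crossed, and the difference was 1.62 (standard error 0.41). Ifit3 stood at 6.47, 6.68, 5.19 and 7.22 in WT livers and at 6.83, 7.41, 8.33 and 7.73 in CAG42 livers, a difference of 1.18 (standard error 0.30). As in Ifit1, WT replicate 3 was the lowest liver and CAG42 replicate 3 the highest. Its probe set may share signal with the near-identical Ifit3b. Ifit2 had a smaller difference of 0.58 (standard error 0.15), without overlap of the groups. None of the 3 Ifit genes was called.

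Ifi27l2a, the neighbour of Ifi27 on chromosome 12, was at 5.81, 6.58, 6.26 and 7.36 in WT and 7.00, 7.50, 8.59 and 8.77 in CAG42 livers, a difference of 1.46 (standard error 0.44). Rtp4, a receptor-transporting protein that is strongly induced by interferon, showed 7.58, 8.18, 6.62 and 8.56 against 8.26, 8.55, 9.33 and 9.42 (difference 1.15, standard error 0.35). In both genes CAG42 replicates 3 and 4 were the highest livers. The second, dimmer probe set of Rtp4 had a difference of 0.05.

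Rsad2 (viperin) turns CTP into a chain terminator of viral RNA synthesis. It was measured at 6.44, 6.66, 4.87 and 6.69 in WT livers and 6.53, 7.20, 7.71 and 7.14 in CAG42 livers (difference 0.98, standard error 0.36). Its low WT value is that of replicate 3, and WT replicates 2 and 4 reached into the CAG42 range. Its other 2 probe sets had differences of 0.09 and 0.45. Samd9l, an inhibitor of protein synthesis in infected cells, was also lowest in WT replicate 3, with 7.01, 6.90, 5.62 and 7.46 against 7.22, 7.23, 7.90 and 8.01 (difference 0.84, standard error 0.27). Cmpk2, the nucleotide kinase encoded next to Rsad2, differed by 0.30 (standard error 0.21) and by its second probe set by -0.09, and the exonuclease Isg20 by 0.34 (standard error 0.19).

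Among the nucleic acid sensors, Zbp1, which recognises left-handed Z-form nucleic acid, was at 6.05, 6.49, 5.46 and 6.91 in WT and 6.47, 6.93, 7.73 and 7.54 in CAG42 livers (difference 0.94, standard error 0.24). The RNA helicases Ifih1 (MDA5), Dhx58 (LGP2) and Ddx58 (RIG-I) differed by 0.56, 0.51 and 0.41, the RNA editing enzyme Adar by 0.46 and the kinase Eif2ak2 (PKR) by 0.17. Adar's difference was 0.42 and 0.09 by its other 2 probe sets, Ddx58's 0.23 and 0.02, and Dhx58's -0.02 and 0.06. By the brightest probe set all 6 sensors had a difference above 0, which for Dhx58 depended on the probe set, and 0 of them were called.

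Gbp3, a guanylate-binding GTPase that attacks the vacuoles of intracellular pathogens, stood at 6.38, 6.73, 5.67 and 7.18 in WT and at 6.67, 7.16, 8.25 and 7.71 in CAG42 livers (difference 0.96, standard error 0.30), while its near neighbour Gbp2 differed by 0.20 and overlapped widely. Parp14, an ADP-ribosyltransferase, had 6.97, 7.15, 5.76 and 7.12 against 7.01, 7.36, 7.38 and 7.97 (difference 0.68, standard error 0.25). The other 3 WT livers lay within or just below the range of the CAG42 livers, and its second probe set had -0.07. Its neighbours on chromosome 16, Parp9 and the ubiquitin ligase Dtx3l, which work as a pair, differed by 0.34 and 0.26.

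The transcription factors Stat2 and Irf9, which work together in the ISRE-binding complex, differed by 0.59 and 0.53, and Irf1 by -0.04 (standard error 0.18). The ubiquitin ligase Trim25, which activates RIG-I, differed by 0.48, and Herc6, the mouse ligase that attaches ISG15, by -0.12. Mx2 differed by 0.27 and Mx1 by -0.22. The range of the remaining genes was narrow, with Xaf1, a partner of the apoptosis inhibitor XIAP, at 0.40, Ifi35 at 0.34 and the nuclear body protein Sp100 at 0.19. Irf1, Herc6 and Mx1 were thus the 3 genes below 0. The plot of liver values by mouse shows the 12 genes with the largest differences.

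**Figure D1:**
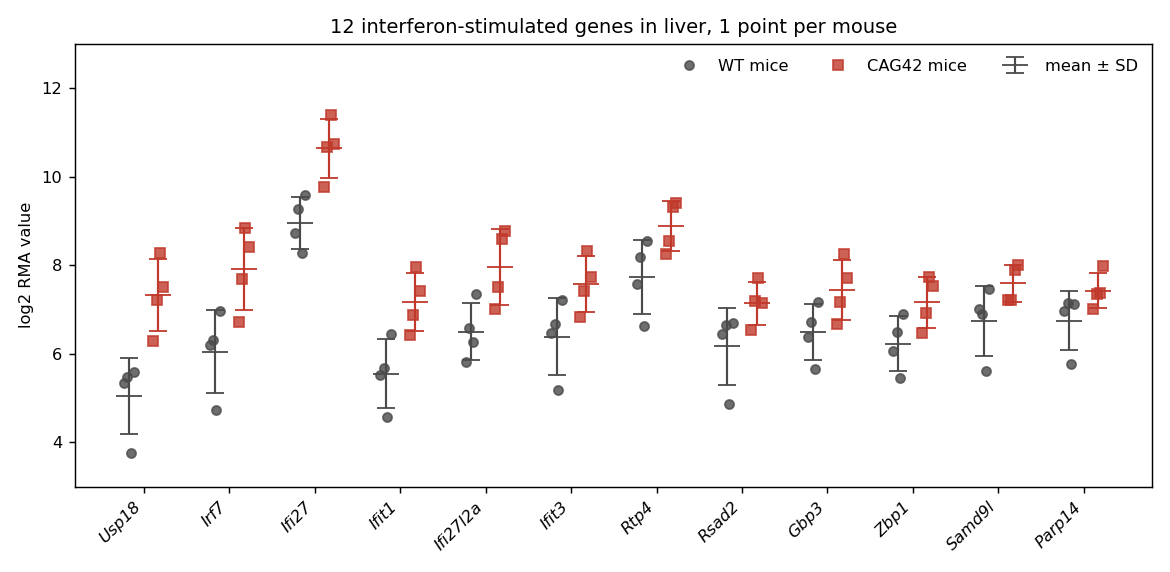
Levels of 12 interferon-stimulated genes in liver (y axis: log2 RMA value, 1 point per mouse), with WT mice as grey circles and CAG42 mice as red squares, and horizontal marks with bars for the mean ± SD of 4 mice. Usp18 and Ifi27 show no overlap between the genotypes, while in Rsad2 and Parp14 a single WT liver lies far below the others (4.87 and 5.76).

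Single livers weigh heavily on these differences. WT replicate 3 was the lowest WT liver for 26 of the 33 genes and WT replicate 4 the highest for 18. CAG42 replicate 1 was the lowest CAG42 liver for 28, and the same counts over all genes were not made. The mean over the 33 genes was 6.34, 6.50, 5.77 and 6.71 in WT livers and 6.52, 6.89, 7.31 and 7.29 in CAG42 livers, so that WT replicate 4 stood above CAG42 replicate 1. Without WT replicate 3 the median difference was 0.35 in place of 0.51, and 29 genes were above 0. Usp18 and Ifi27 remained called, with 69 probe sets called in all. Without WT replicate 1 the calls became 12 higher (Adar, Ddx58, Ifi27, Ifi35, Ifit1, Ifit2, Ifit3, Irf7, Irf9, Stat2, Usp18 and Zbp1) and 1 lower (Mx1), while the number of probe sets called in all rose from 66 to 2878. Without both, Usp18 and Ifi27 were called, with 640 probe sets called in all, 27 genes were above 0 and the median was 0.34. Ifi27 was the one gene called without each single liver in turn. These fits share the same livers and are no check in other mice. The study, which names this gene Ifi27l1, did not reproduce its change by qPCR in other mice. Standard errors and calls in liver also rest on the spread shared with the less variable brain regions. A fit of the 8 livers alone called 0 genes of any kind, and 1 F statistic over the 3 tissues called Ifi27 alone among the 33 genes.

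**Figure D2:**
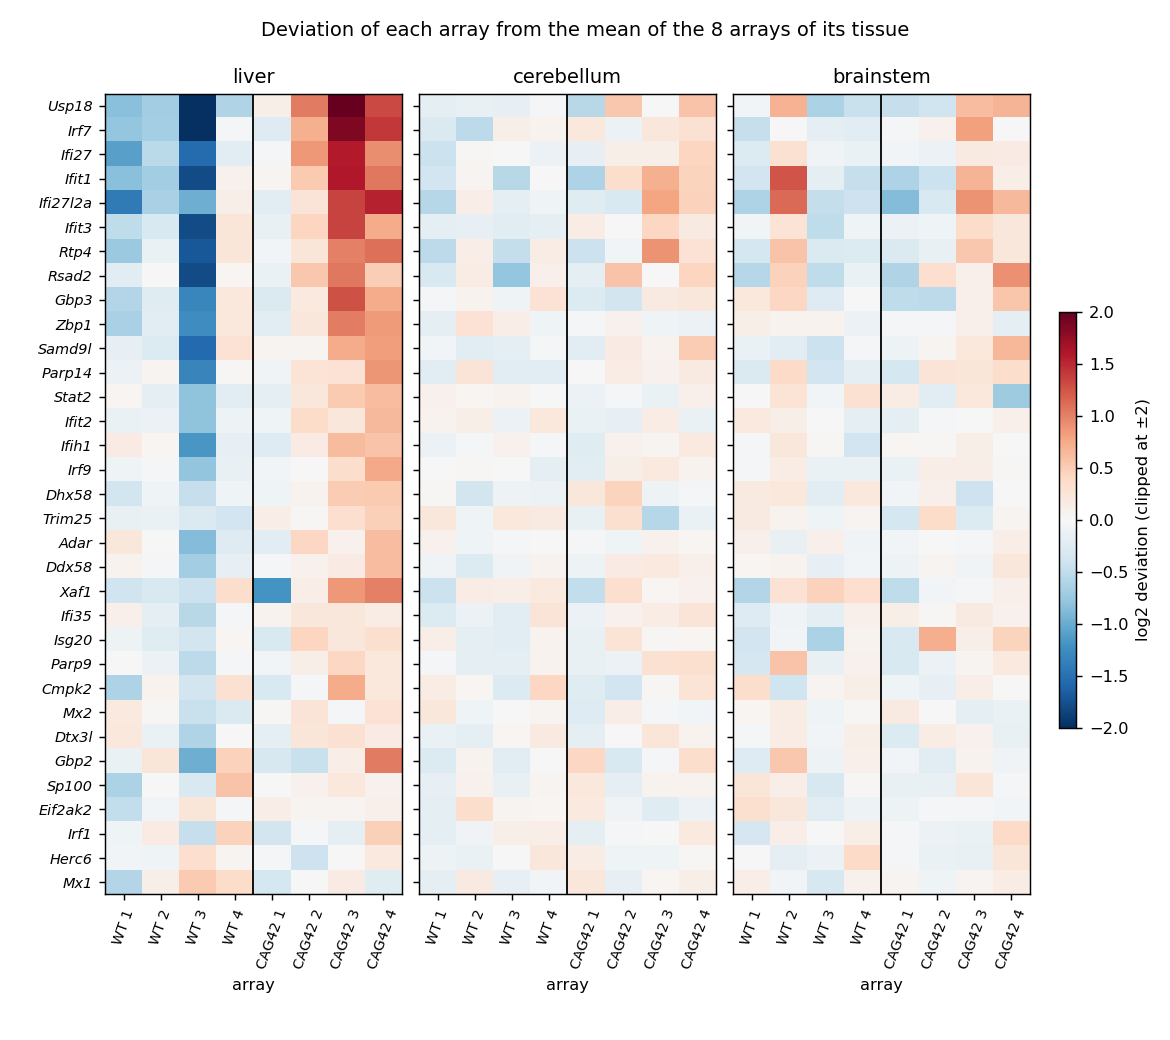
Deviation of each array from the mean of the 8 arrays of its tissue (colour: log2 deviation, clipped at ±2) for the 33 genes (rows, ordered by the liver difference) and the 8 arrays of each tissue (columns, WT left of the line and CAG42 right of it). In liver the column of WT replicate 3 is blue for most genes and the columns of CAG42 replicates 3 and 4 are red, and in brainstem WT replicate 2 is red for Ifit1 and Ifi27l2a.

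Other parts of the interferon pathway were taken from lists set up around these genes. Of 44 further interferon-stimulated genes, 40 were measured, and 39 of them had a liver difference above 0, with a median of 0.37. Ly6e, a membrane protein, was the one called, at 10.55 in WT and 11.43 in CAG42 liver, a difference of 0.88, but not without WT replicate 2 or 3 or CAG42 replicate 2, 3 or 4. Trim30a, a tripartite motif protein, had the largest difference of that list, 1.16 (5.45 in WT and 6.61 in CAG42 liver), and the secreted glycoprotein Lgals3bp and the immunity-related GTPase Irgm1 followed with 0.79 and 0.68. Of the interferons themselves, 11 of 18 were measured, their median difference was -0.11, and Ifnb1 was at 2.99 in WT and 2.87 in CAG42 liver, low on this scale. The 11 measured receptor and signalling genes had a median of 0.10, led by the kinases Tyk2 (0.38) and Jak1 (0.26), and 13 upstream sensing genes and adaptors a median of 0.05, led by the kinase Ikbke (0.22). By limma 0 genes of these 3 lists were called. Without WT liver replicate 1 the calls were 6 of the further interferon-stimulated genes, all higher, with Tyk2 higher (0.52) and the interferon Ifnab lower (-0.52).

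Markers of cells that could bring such RNA into liver were read beside this. All 11 macrophage markers were measured, 8 had a difference above 0 with a median of 0.06, and their mean per liver ranged from 7.33 to 8.13 in WT and from 7.23 to 8.70 in CAG42 mice. The highest value was that of CAG42 replicate 4, which with 5.78 was also the highest for the 6 neutrophil markers (WT 4.30 to 4.90, other CAG42 livers 4.55 to 4.63). CAG42 replicate 3, with the highest mean of interferon-stimulated genes, stood at 7.62 and 4.63. T and NK cell markers ranged from 4.04 to 4.36 in WT and 4.07 to 4.23 in CAG42 livers, B and plasma cell markers from 5.63 to 5.89 in both, and the 2 measured markers of plasmacytoid dendritic cells from 4.42 to 6.07 and from 5.35 to 5.73. By limma 0 of these markers were called (the B cell gene Ms4a1 was, at -0.55, without WT replicate 1). Without detection calls, a low marker level may be background alone. The part of these cells in the liver differences was not tested.

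By the brightest probe set of each gene, the same genes differed little between the genotypes in cerebellum and brainstem. A second, dimmer probe set of Xaf1 had larger differences in both regions and is described below. In cerebellum 23 of 33 genes had a difference above 0 (50.8% of all genes) and the median was 0.10. In brainstem it was 17 of 33 (47.9%) with a median of 0.01. As a description, limma called 0 of the 33 genes in either region, where 0.0117% of all genes were called higher and 0.0292% lower in cerebellum and 0% and 0.00585% in brainstem. At an unadjusted p under 0.05 it was 0 genes in cerebellum (1.95% of all genes higher and 1.36% lower) and 1, Isg20, higher in brainstem (1.5% higher and 1.77% lower). The largest difference in size was 0.45 in cerebellum and 0.49 in brainstem, while 17 genes exceeded 0.5 in liver, and the liver difference was the highest of the 3 tissues in 28 of 33 genes. This contrast between tissues was not tested.

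Ifit1 had the largest cerebellar difference, with 3.68, 4.11, 3.50 and 4.04 in WT and 3.44, 4.41, 4.77 and 4.50 in CAG42 mice (0.45, standard error 0.41). Rsad2 followed with 4.07, 4.53, 3.61 and 4.48 against 4.19, 4.94, 4.38 and 4.80 (0.41, standard error 0.36). Both differences lay within about 1 standard error and the groups overlapped. Ifit3 was the one gene whose cerebellar groups parted, at 6.95, 6.96, 6.92 and 6.94 in WT and 7.28, 7.13, 7.54 and 7.30 in CAG42 mice (difference 0.37), where 2.33% of all genes parted in this direction. The standard error of 0.30 comes from the spread shared with liver. In cerebellum alone the SD of Ifit3 was 0.019 in WT and 0.17 in CAG42 mice.

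In brainstem, Isg20, an exonuclease of single-stranded RNA, was at 3.88, 4.21, 3.64 and 4.33 in WT and 3.96, 4.99, 4.38 and 4.70 in CAG42 mice (difference 0.49, standard error 0.19). Irf7 was at 3.22, 3.69, 3.48 and 3.46 against 3.66, 3.77, 4.51 and 3.67 (0.44, standard error 0.38), and Samd9l at 5.76, 5.67, 5.45 and 5.84 against 5.78, 5.93, 6.09 and 6.55 (0.41, standard error 0.27). For all 3 genes the groups overlapped, as they did for the other 30 (1.84% of all genes had every CAG42 brainstem higher), and the Irf7 difference rests on CAG42 replicate 3. The genes with the largest liver differences were at 0.22 (Usp18), 0.08 (Ifi27) and -0.12 (Ifit1) in brainstem.

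**Figure D3:**
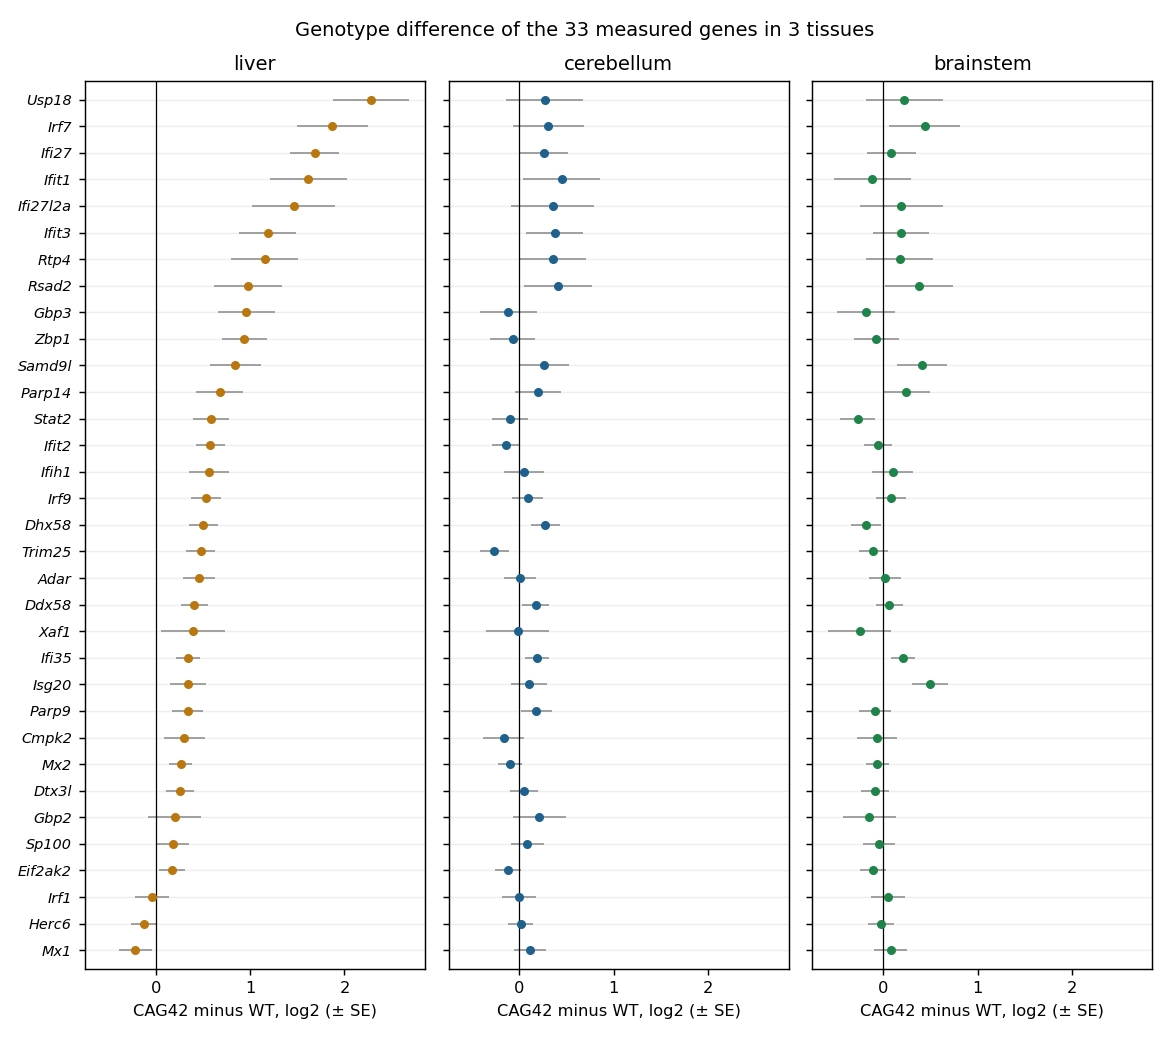
CAG42 minus WT difference of each of the 33 genes (x axis: log2, bars ± standard error of the fit) in liver, cerebellum and brainstem, with the genes ordered by the liver difference. In liver the points run from -0.22 (Mx1) to 2.28 (Usp18), while in cerebellum and brainstem all lie within 0.5 of 0.

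The same replicate numbers stood out in more than 1 tissue. CAG42 replicate 1 was the lowest of its group for 28 of 33 genes in liver, 17 in cerebellum and 20 in brainstem, and its mean over the genes was the lowest CAG42 value in each (6.52, 4.64 and 5.22). CAG42 replicates 3 and 4 were the highest for 14 and 16 genes in liver, 9 and 12 in cerebellum and 14 and 13 in brainstem. The same counts over all genes were not made. Over all probe sets, the median of CAG42 cerebellum replicate 1 was also low, at 4.42 against 4.53 to 4.54 in the other CAG42 arrays. In liver and brainstem the median of CAG42 replicate 1 (4.19 and 4.60) was not the lowest of its group. Deviations from the group means over all probe sets correlated between cerebellum and brainstem in all 8 pairs of equal genotype and number (r from 0.22 to 0.38), but in liver and cerebellum r exceeded 0.1 in 6 of 8 pairs and in liver and brainstem in 5. The sources used here do not say whether a number marks 1 mouse. Among WT arrays, replicate 2 was the highest brainstem for 19 of 33 genes, with Ifit1 at 7.15 against 5.42 to 5.71 in the other 3 and Ifi27l2a at 7.26 against 5.52 to 5.72. The WT liver with the same number was not the highest for most genes (4 of 33).

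Xaf1 was measured by 2 probe sets that gave different pictures. By the one with the higher mean over all arrays, WT livers stood at 6.32, 6.41, 6.29 and 7.07. CAG42 livers were at 5.52, 6.85, 7.58 and 7.72, with a difference of 0.40. By the other one, WT replicates 1 and 2 were at 6.74 and 6.78 in liver, while replicates 3 and 4 were at 4.01 and 3.78 and the CAG42 livers between 7.33 and 8.18. The same 2 WT numbers were low in cerebellum (2.84 and 3.30, all other arrays 6.13 to 7.37) and in brainstem (3.17 and 3.26, all others 7.98 to 9.34). The gap between these arrays and the next was 2.73 in liver, 2.83 in cerebellum and 4.72 in brainstem. In this probe set the arrays of equal number therefore moved together in all 3 tissues. Its CAG42 minus WT difference in liver was 2.53 with a standard error of 1.01, and was not called. In cerebellum and brainstem its CAG42 mean also lay above its WT mean, by more than for any brightest probe set there. WT replicates 3 and 4 were the low arrays in both regions, and neither difference was called.

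**Figure D4:**
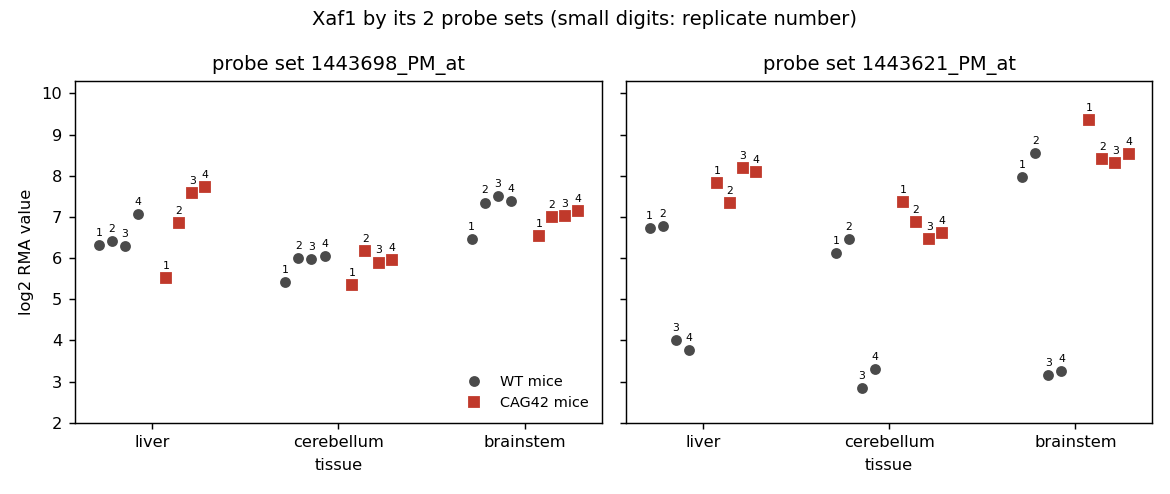
Xaf1 by its 2 probe sets (y axis: log2 RMA value) in liver, cerebellum and brainstem, with WT arrays as grey circles and CAG42 arrays as red squares and the replicate number above each point. The left panel shows the probe set with the higher mean over all arrays. In the right panel, WT replicates 3 and 4 lie between 2.84 and 4.01 in every tissue, below all other arrays.

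Differences between the tissues were not among the contrasts of the choice, although the mean level in each tissue belonged to it. They were tested first among WT mice and then, as the same measure in other mice, among CAG42 mice. In WT mice, 25 of the 33 genes had their highest mean in liver, 7 in brainstem and 1 in cerebellum, and cerebellum was the lowest tissue for 25. Liver exceeded cerebellum in 25 genes and fell below it in 3, where 38.3% of all named genes were called higher and 46.5% lower in liver. The median difference was 1.80, against -0.13 over all genes, and liver and cerebellum arrays did not overlap in 25 genes with liver higher and 3 with liver lower (34% and 42.8% of all genes). Against brainstem, liver was higher in 22 genes and lower in 4 (33% and 51.8% of all genes), with a median of 1.10 against -0.35, and the arrays did not overlap in 16 and 4 genes (28.7% and 47.5%). Cerebellum was lower than brainstem in 23 genes and higher in 1 (36.3% and 14.1%), with a median of -0.69 against -0.14. Centring each array on its median would move every liver minus cerebellum difference in WT mice up by 0.32 and every liver minus brainstem difference by 0.41.

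Parp9, Dtx3l, Trim25, Ifih1 and Parp14 had the largest called excess of liver over cerebellum. Parp9 stood at 8.53 ± 0.24 in WT liver, 4.51 ± 0.13 in cerebellum and 5.20 ± 0.39 in brainstem (SD, n = 4), so that liver exceeded cerebellum by 4.01 (standard error 0.17, limma adjusted p = 1.15e-16) and brainstem by 3.33. Dtx3l, its partner, exceeded cerebellum by 3.67 and brainstem by 2.42, and Parp14 by 3.17 and 2.82. The 3 neighbouring genes thus had the same order of tissue means, although for Parp14 the brain regions did not differ by a call (-0.35). Trim25 was at 8.50 ± 0.12 in liver against 4.93 ± 0.14 and 5.86 ± 0.11, a difference of 3.58 from cerebellum and 2.64 from brainstem, and Ifih1 was 3.39 and 2.77 higher in liver. Zbp1, at 6.23 ± 0.62 in liver, was low in brainstem (3.20 ± 0.10) and differed by 3.03. Irf7 lay at 6.05 in WT liver, 3.07 in cerebellum and 3.46 in brainstem, and the brain regions did not differ by a call (-0.39). The differences between liver and brain given here were all called, and each was also called in CAG42 mice, where Parp9 was 4.18 above cerebellum and 3.76 above brainstem.

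Several genes ran the other way. Adar stood at 5.18 ± 0.47 in WT liver, 8.20 ± 0.07 in cerebellum and 8.65 ± 0.13 in brainstem, so that liver was lower by -3.02 and -3.47 (limma adjusted p = 4.94e-14 and 3.32e-15), and both other probe sets were called lower in liver too. Between cerebellum and brainstem its probe sets disagreed, with calls of -0.44, -0.77 and 0.69. Stat2 was highest in cerebellum, at 7.30 ± 0.04, against 5.73 ± 0.36 in liver and 5.19 ± 0.18 in brainstem, with differences of -1.57 for liver minus cerebellum and 2.12 for cerebellum minus brainstem. Its second probe set gave the same directions (-0.51 and 1.76, both called). Irf9, its partner, varied little, with 0.31 between liver and cerebellum, not called, and 0.38 between liver and brainstem, called (limma adjusted p = 0.0321).

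Ifit2 and Ifit3 had their highest WT level in brainstem. Ifit2 was at 4.57 ± 0.34 in WT liver, 4.53 ± 0.14 in cerebellum and 6.64 ± 0.17 in brainstem, where liver and cerebellum did not differ by a call (0.04) and brainstem exceeded them by 2.07 and 2.11. Ifit3 fell from brainstem to liver by 1.33, and in CAG42 mice the same difference was -0.33, not called, and turned to 0.10 with centred arrays. Ifit1 was lower in cerebellum than in brainstem by 2.11 (standard error 0.41), where WT brainstem replicate 2 was far above the others. Between liver and brainstem it did not differ by a call in WT mice (-0.39, standard error 0.41). The 3 Ifit genes lie within 1 cluster on chromosome 19, with 3 coding genes between Ifit3 and Ifit1.

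Rsad2 and Cmpk2, adjacent on chromosome 12, differed in their order of tissues. Rsad2 was higher in WT liver than in cerebellum (limma adjusted p = 2.4e-05) and than in brainstem, by 1.10, while one of its dimmer probe sets gave -0.08 against brainstem. Cmpk2 was lower in liver than in cerebellum by -1.38 and than in brainstem by -2.95 by its brightest probe set, but its second probe set gave 1.63, called higher, and 0.22, so that its direction depends on the probe set. Both put brainstem above cerebellum (-1.57 and -1.41 for cerebellum minus brainstem). Gbp2 (-1.44 and, by its second probe set, -1.47) and Rtp4 (-1.38) were also lower in cerebellum than in brainstem, although the second probe set of Rtp4 gave -0.02.

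CAG42 mice gave the same pattern of tissues. Liver exceeded cerebellum in 28 genes, among them all 25 called in WT mice, and fell below it in the same 3 (37.5% and 46.2% of all genes). Against brainstem it was 27 higher, including all 22 of the WT mice, and 3 lower, which were 3 of the 4 of WT mice (32.8% and 51.2% of all genes). Cerebellum was lower than brainstem in 20 genes, all of them among the 23 of WT mice, and higher in Stat2 and Dhx58 (35.8% and 13.9% of all genes). Without WT liver replicates 1 and 3, liver exceeded cerebellum in 27 genes (37.2% of all genes in that fit) and brainstem in 25 (32%) in WT mice.

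**Figure D5:**
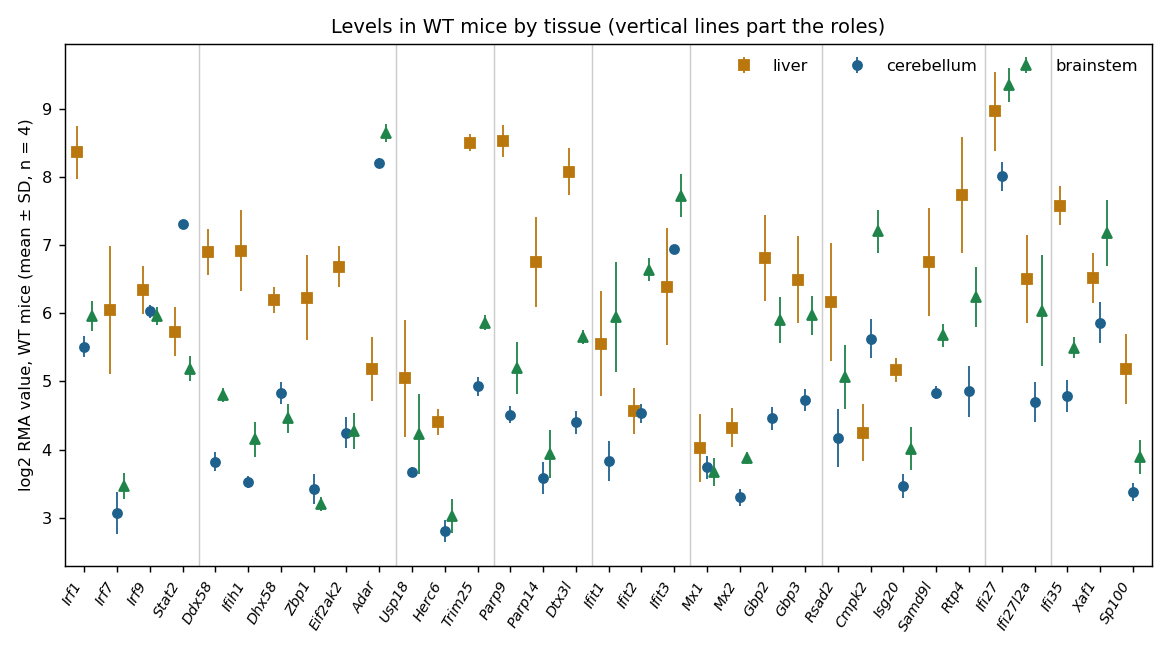
Levels of the 33 genes in WT mice (y axis: log2 RMA value, mean ± SD of 4 mice) in liver (squares), cerebellum (circles) and brainstem (triangles), with vertical lines between groups of genes of different roles. Liver is the highest tissue for 25 of the 33 genes, while Adar lies near 8 to 9 in both brain regions and Ifit2 and Cmpk2 are highest in brainstem.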

How the data were processed

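The 24 arrays (Affymetrix, with probe set names of a design that holds perfect-match probes only) were scanned and normalized by the authors with RMA, and the deposited values are log2 levels of each probe set; the submitters' processing notes name R 2.7.0. The labels and the methods differ on the labelling protocol. No scan date, detection call or background signal entered, so no batch was tested, and the number of arrays limits the precision. Arrays of younger mice were not analysed here. RMA brings all arrays to one distribution, which can blunt differences between tissues.

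The labels gave tissue, genotype and number of each array, and the methods the age. Probe sets were named from the platform annotation (28898 with 1 gene, 551 with several, 15588 with none; 104 control probe sets were left out) with symbols updated through the RefSeq table of GRCm38.p6, in which Ifi27l1 is Ifi27. In R 4.3.3, limma 3.58.1 was fitted with a mean for each of the 6 groups, without weights. The fit shares 1 spread per probe set between tissues, and the empirical Bayes step moderates these spreads over all probe sets. The procedure was tested on simulated data with independent arrays and 1 spread per probe set for all groups. That setting lacks the wider spread of liver, so it cannot show how that spread affects the calls. The genes, the further lists and the rules for naming genes were chosen with earlier results of these data known. The rule gives values per mouse for the 12 genes with the largest difference in liver and the 3 with the largest in each brain region, up to 5 called genes per direction of each WT tissue comparison, and up to 4 genes of each further list. Replicate numbers paired cerebellum and brainstem arrays (all 8 correlations of deviations over 0.1), and the source of the pairing is these values alone. P-values and standard errors measure the spread between arrays, pooled over the 3 tissues. For liver, the tissue with the widest spread, both can therefore be too small. Alternatives were fits of fewer arrays, replicate blocks, a filter on dim probe sets, averaging a gene's probe sets, array weights, quantile normalization within tissue, centring, an F statistic and each array left out. Figures were drawn with matplotlib 3.10.9.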

Additional observations from a re-analysis of the deposited data

Results flagged for a closer look

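Of 204 groups of 4 arrays (33 genes and their mean in 6 groups), 18 (8.82%) had 1 array set apart from the other 3 by a gap above Dixon's critical value for 4 values, a criterion that chance meets in about 1 of 20 groups. Of these, 5 concern WT liver replicate 3, which was lowest for Usp18 (3.77, others 5.34 to 5.59), Rsad2 (4.87, others 6.44 to 6.69), Parp14 (5.76, others 6.97 to 7.15), Irf9 (5.81, others 6.46 to 6.57) and Ifit2 (4.06, others 4.73 to 4.75). WT brainstem replicate 2 was highest for Ifi27l2a (7.26), Ifit1 (7.15) and Rtp4 (6.89, others 5.97 to 6.05). Xaf1 was set apart in WT mice by replicate 4 in liver (7.07) and by replicate 1 in cerebellum (5.42) and brainstem (6.46).

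The others were single arrays. WT brainstem replicate 3 was low for Dhx58 (4.15). In WT cerebellum, replicate 2 was high for Parp14 (3.93) and low for Trim25 (4.71). In CAG42 mice, cerebellum replicate 3 was high for Ifit2 (4.61), brainstem replicate 4 for Irf1 (6.36) and brainstem replicate 3 for Irf7 (4.51), and brainstem replicate 1 was low for Parp14 (3.70).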

How the results depend on the processing

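The liver calls of CAG42 against WT mice were the most open to the processing. In place of 3 genes called higher it was 0 in a fit of the livers alone and 1 (Ifi27) by the F statistic, which also gives 1 in cerebellum and 1 in brainstem since it does not part the tissues. Leaving out single arrays gave 1 to 12 genes higher and 0 to 1 lower in liver (12 and 1 with WT replicate 1 left out, 5 when it was WT replicate 4, and 1 when it was CAG42 replicate 3). Probe sets called in all were then 2878, 110 and 35. The 3 calls were kept with the replicate number as a block, with the random replicate block (consensus correlation 0.0641) and under the filter on dim probe sets, averaging over a gene's probe sets, array weights, quantile normalization within tissue and centring. The numbers did not pair CAG42 and WT arrays (r from -0.30 to 0.21).

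Among the tissue comparisons of WT mice, 1 count moved by over 1.5 times: genes called higher in cerebellum than in brainstem were 2 in place of 1 with arrays of 1 genotype only, the random replicate block, the dim filter, array weights or centring, and 1 to 2 without single arrays. In CAG42 mice it was 1 in place of 2 when a gene's probe sets were averaged. With that average, Cmpk2 reversed for liver minus cerebellum (0.12 in WT and 0.28 in CAG42 mice), and with centred arrays Ifit3 reversed for liver minus brainstem in CAG42 mice (0.10). Genotype and number as a replicate block gave 27 higher and 4 lower genes for WT liver against cerebellum and changed no other count by over 1.5 times. The leave-out of WT liver replicates 1 and 3 in tissue comparisons was chosen after seeing the data. Of the recomputed differences of single genes, 704 between tissues kept their direction and their side of the threshold and 3 reversed. Between genotypes 12 lost a call. The other 306 kept their call or, where the main fit made none, moved by less than the SD within groups. Some of these gained a call, as Ifit1, Ifit3 and Zbp1 did in liver without WT replicate 1. The median liver difference ranged from 0.34 to 0.64. Signal near background limits what can be said of genes in brain.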
